A study of Homo sapiens with 6 samples.

Results

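Very wide H3K27ac domains are the stretches of chromatin that carried the acetyl mark without a break over 5000 bp or more in vehicle-treated cells. They were chosen by their width alone in the peak list of the DMSO H3K27ac library. Of 67087 acetylated regions in that list, 1084 (1.62%) were this wide, and together they spanned 8.07 Mb, or 11.8% of the acetylated sequence. Because width chose them, their width and their height in the DMSO library are described and not tested. The cells were ME-1, an established human acute myeloid leukemia line with inv(16), the inversion that fuses CBFB to MYH11. The cells of both conditions carry that fusion. They were kept for 6 h in DMSO or in AI-10-49 at 1 µM, and chromatin was precipitated with an antibody to acetylated lysine 27 of histone H3 or to RUNX1. Each combination of antibody and condition was 1 library. Differences between conditions therefore have no replicate check and carry no p-value. All statements on a difference compare these libraries, and intervals cover only the counting of regions, peaks or fragments.

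H3K27ac marks active promoters and enhancers. Most acetylated regions are short, flanking a single open site, while long unbroken domains form where many enhancer elements lie close together. Such domains are known in blood cells for lying at genes that set cell identity. RUNX1 is a DNA-binding transcription factor of blood formation that works with its partner CBFβ. The fusion protein of inv(16) cells, CBFβ-SMMHC, holds on to RUNX1, and AI-10-49 is a small molecule made to block that contact. Where RUNX1 lies within the wide domains with and without the inhibitor, and how much of the acetylation is still called, are the questions addressed here.

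The libraries were of similar size. Read totals recovered from the peak lists were 35.7 M (mega) for H3K27ac in DMSO and 37.0 M in AI-10-49, and for RUNX1 33.8 M and 31.5 M. The smaller partner of each H3K27ac call and its input had 34.0 M reads in DMSO and 27.6 M in AI-10-49, a ratio of 0.812. H3K27ac fragments were also longer in AI-10-49 (210 against 192 bp, a ratio of 1.09). The parts of depth and fragment length in the extent and height of regions were not tested. The RUNX1 list held 1701 peaks in DMSO and 10319 in AI-10-49.

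The domains had a median width of 6362.5 bp (quartiles 5581 and 8009), against 551 bp for all DMSO regions. The 128 domains of 10 kb or more included 13 of at least 20 kb. They lay on 23 chromosomes, with none on Y, and in 429 cytobands, of which 161 held a single one. Their share of all acetylated regions of a chromosome ran from 0.963% on chromosome 9 to 2.34% on chromosome 21. At the summit, the position of highest signal, a domain held a median of 214 fragments (range 44 to 383), and the fold enrichment of the authors' peak caller had a median of 23.4.

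The widest domain, 41352 bp at chr12:11888894-11930245 (hg19, as all positions), lay in 12p13.2. This is the band of ETV6, an ETS-family transcription factor that is often rearranged in leukemia. A gene beside a band is background throughout and does not place the domain at that gene. A second domain of the same band, chr12:11936708-11968437, was 31730 bp wide. Between them in rank came 34472 bp in 1q32.1 (chr1:206234593-206269064) and 32106 bp in 8q23.1 (chr8:108313569-108345674). Next were 30733 bp in 8q11.23 (chr8:53036763-53067495), 27483 bp in Xp11.3 (chrX:45607025-45634507) and 26096 bp in 11q13.2 (chr11:67033318-67059413). The list of 10 closed with 25408 bp in 10p14 (chr10:11201618-11227025), 24933 bp in 11p13 (chr11:35050187-35075119), the band of the adhesion receptor gene CD44, and 24637 bp in 6q23.3 (chr6:135497182-135521818). The last is the band of MYB, which encodes a transcription factor of blood progenitors.

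All 10 of the widest domains were still covered almost end to end in the AI-10-49 list, between 94.99% in the second 12p13.2 domain and 99.8% in 1q32.1. They differed in how far they were cut up. The 1q32.1 domain lay, but for 66 bp, in 1 AI-10-49 region of 36574 bp, the widest of that list, whereas the second 12p13.2 domain was spread over 8 regions with gaps of at most 319 bp. The RUNX1 content differed as well. The 8q11.23 domain had no RUNX1 peak in either condition, and the 41352 bp domain had none in DMSO and 1 in AI-10-49. The 11p13 domain had 2 and 7.

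**Figure D1:**
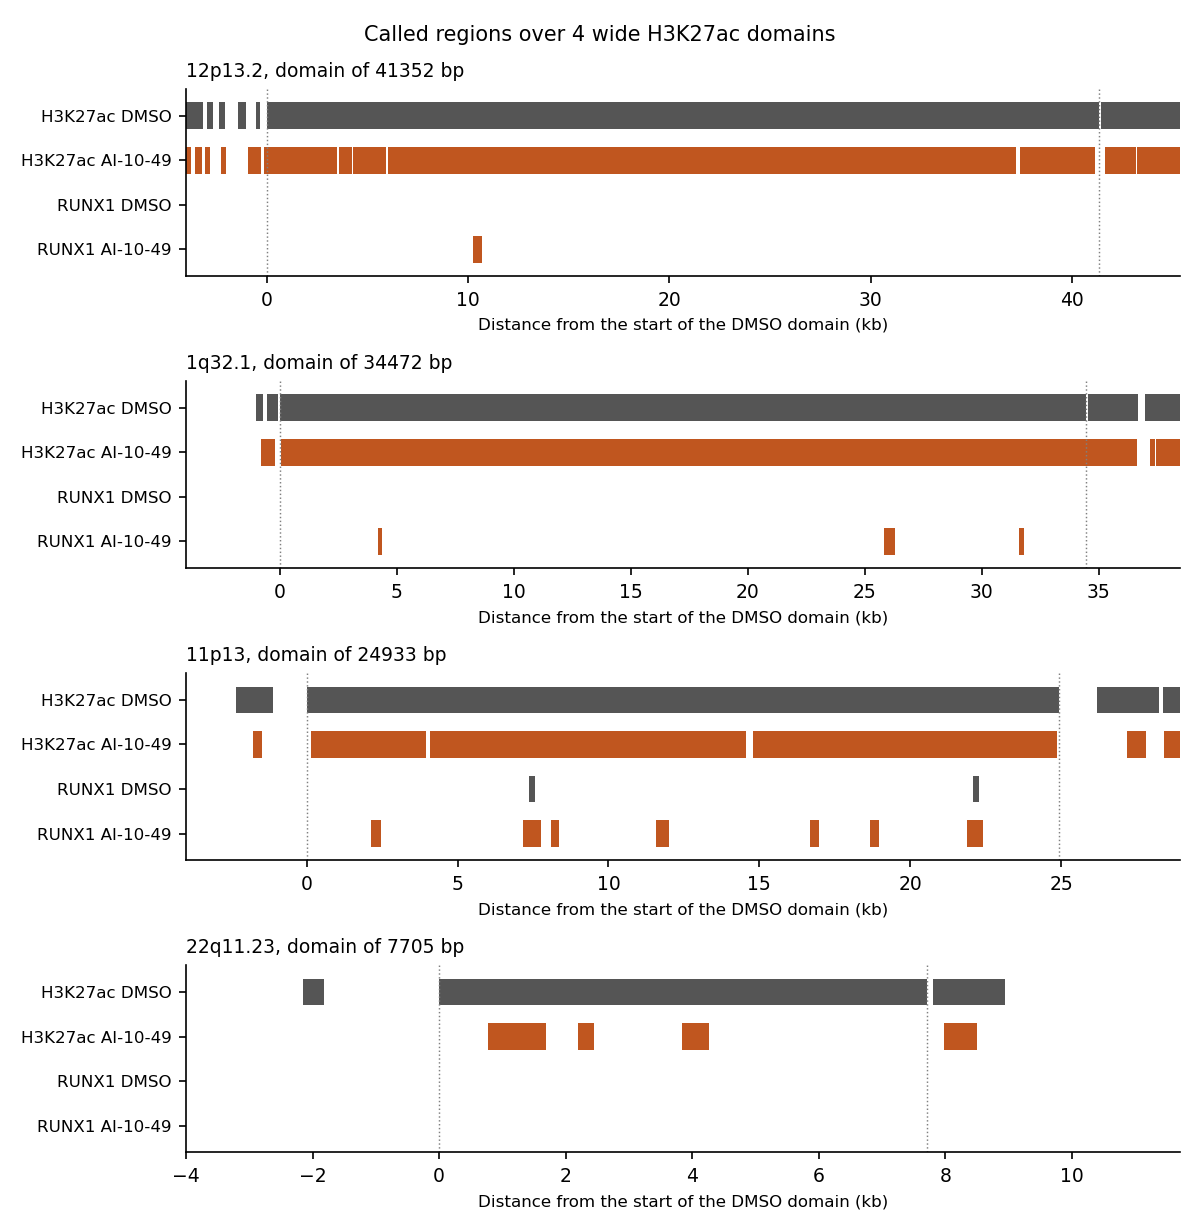
Called regions of the 4 libraries over 4 wide domains, drawn to scale by distance in kb from the start of the DMSO domain (dotted lines mark its ends). Bars are regions as listed, and gaps of less than about 0.2 kb are hard to see at this scale. The domains of 12p13.2, 1q32.1 and 11p13 are 98.4%, 99.8% and 97.8% covered in AI-10-49, and the domain of 22q11.23 is 20.4% covered.

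Regions on both sides of the width threshold had similar coverage. The 5 domains just inside it, in 15q26.3, 11q13.1, 6q22.32, 2p15 and 12q21.32, were 5000 to 5006 bp wide and were 89.2% to 100% covered in AI-10-49. The 5 regions just outside, in 9p24.3, 7p22.3, 6q24.3, 20q13.13 and 4p16.1, were 4995 to 4999 bp wide and were 86.8% to 100% covered.

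The first comparison asks how much of each domain was still acetylated after 6 h of AI-10-49. Nearly all of it was still called. Of the 8.07 Mb, 93.1% lay in AI-10-49 regions, and the median domain was 95.5% covered (quartiles 89.5 and 98.7). No domain was without an AI-10-49 region (0 of 1084, exact Clopper-Pearson upper bound 0.340%). That share was 29.0% over all DMSO regions, but 0.0581% in those of 3.5 to 5 kb. At least 90% was covered in 797 domains (73.5%), and under 75% in 52 (4.797%). These shares were not counted over other DMSO regions. For regions of 3.5 to 5 kb the quartiles of coverage were 86.2% and 98.5%. Under 50% was covered in 6 domains (0.554%, 0.203 to 1.20). That number was 10 when AI-10-49 regions below a −log10 q of 5 were dropped, and 3 when regions under 500 bp apart were joined. Among all DMSO regions 37.9% were under 50% covered, but coverage depended on width throughout the list. The median was 46.8% for regions under 1 kb, 85.7% from 1 to 2 kb, 91.8% from 2 to 3.5 kb and 93.9% from 3.5 to 5 kb. The wide domains thus continued a rise with width that was already present below 5 kb.

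**Figure D2:**
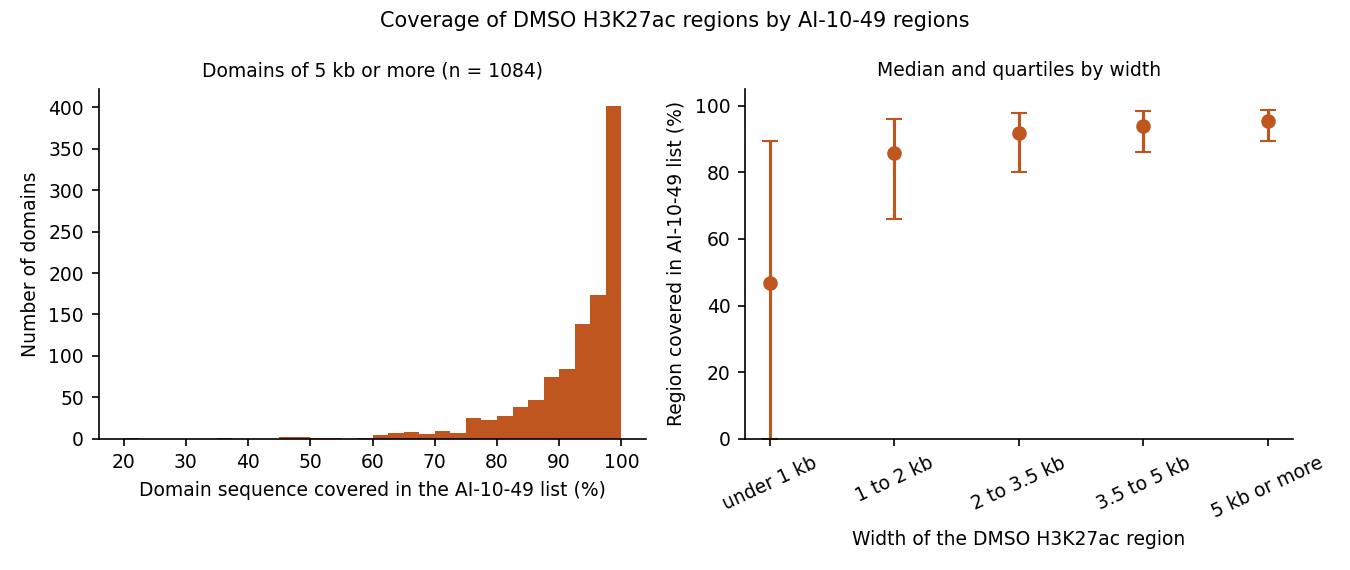
Left, number of wide domains by the percentage of their sequence covered in the AI-10-49 H3K27ac list. Right, median (point) and quartiles (bars) of the same percentage for DMSO regions of 5 width classes. Most domains lie above 90%, and the median rises from 46.8% in regions under 1 kb to 95.5% in the wide domains.

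Most domains were not covered by 1 unbroken region. A domain was spread over 2 or more AI-10-49 regions in 669 cases (61.7%, 58.7 to 64.6), against 13.2% of all DMSO regions and 49.9% of those of 3.5 to 5 kb. There were 322 domains in 2 regions, 199 in 3 and 148 in 4 or more. The domains were chosen as unbroken in the DMSO list, so breaks could appear only in the other list. With the choice reversed, 378 of 899 wide AI-10-49 regions (42.0%) were spread over 2 or more DMSO regions. Over all AI-10-49 regions that share was 7.82%. Most breaks were small. The 1263 gaps between neighbouring AI-10-49 regions had a median of 140 bp (quartiles 77 and 241), and 17 reached 1 kb. When AI-10-49 regions less than 500 bp apart were joined, 99 domains remained split. The uncovered 557 kb divided almost evenly between the ends of domains (284 kb) and gaps inside them (272 kb). In the other direction, AI-10-49 regions reached past an end of 727 domains, by a median of 249 bp and by 543 kb in sum. This sum is not newly acetylated sequence. It includes sequence of neighbouring DMSO regions, and an AI-10-49 region over 2 domains counts for each. Wholly covered domains numbered 127 (11.7%, 9.86 to 13.8), against 16.1% of all DMSO regions.

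The most divided domain was a 10651 bp domain of 10p14 (chr10:11239066-11249716), which was spread over 9 AI-10-49 regions and was 78.6% covered, with a largest gap of 830 bp. It lay close to the 25408 bp domain of the same band. A pair of 8q11.23 domains on either side of the 30733 bp domain, chr8:53084245-53101899 and chr8:53028461-53034650, were each spread over 8 regions and were 91.9% and 85.4% covered. A domain lay over 7 regions in 3 cases. These were a 9830 bp domain of 9q34.13 (chr9:134144246-134154075, 84.0% covered), which led by its −log10 q in DMSO, and domains of 5q23.1 (chr5:118675127-118682199, 83.7%) and 5q31.1 (chr5:134680425-134687163, 74.8%). Coverage of the 7 most divided domains thus ran from 74.8% to 94.99%.

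The least covered domain lay in 22q11.23, the band of BCR, a gene known for its fusion to ABL1 in chronic myeloid leukemia. This domain, chr22:23737164-23744868, was 7705 bp wide with 20.4% covered by 3 AI-10-49 regions, none wider than 907 bp. A second domain of the band, chr22:23918652-23927771, was 9120 bp wide and 45.6% covered. Between these came a 5834 bp domain of 11q24.2 (chr11:126334365-126340198) with 36.7% covered and a gap of 2818 bp, the longest in any domain. Domains of 15q13.1 (chr15:29226034-29231411, 47.1%) and 5q13.3 (chr5:76237915-76244113, 48.4%) followed, and the sixth under 50% was in 10p12.33 (chr10:17451399-17457608, 49.4%). None of the 6 had a RUNX1 peak in DMSO, but neither had 954 of all 1084 wide domains. In AI-10-49 the domains of 11q24.2 and 5q13.3 had 1 each. The other 4 of the 6 had none, where 309 of all 1084 had none.

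The band 22q11.23 stood apart in coverage among the 60 bands with at least 5 wide domains. Its 8 domains were 67.7% covered in sum, where the next lowest band, 3p23, had 79.9% and the median band 94.9%. The band was singled out after its values were seen. Coverage of its domains ran from 20.4% to 96.3%, so the loss was not even along the band. The height differed more uniformly. Summits held 2.66 to 6.86 fragments per M reads in DMSO and 1.08 to 3.001 in AI-10-49, and the 8 ratios lay between 0.259 and 0.480. Their median ratio of 0.412 was the lowest of the 60 bands, with 3p23 close at 0.440. The 166 narrower DMSO regions of the band were 67.2% covered, and the median ratio of the 111 found in both lists was 0.734. Over all DMSO regions under 5 kb these values were 72.8% and 0.845. No wide domain of the band held a RUNX1 peak in DMSO, where 954 of all 1084 wide domains held none. In AI-10-49, 4 peaks were called in the wide domains of the band. Without this band 93.3% of the wide domains' sequence was covered, and 4 domains were under 50%.

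Selection by width in DMSO favours regions that came out wide in that library, so the same rule was applied to the AI-10-49 list. It held 899 regions of 5000 bp or more, 0.829 times the DMSO number. These were 95.7% covered in DMSO in sum, with a median of 98.0% (quartiles 93.5 and 100), and 1 was under 50%, against 27.4% of all AI-10-49 regions. A domain wide in 1 list was therefore covered nearly throughout in the other, whichever list was used to choose. The difference in the number of wide domains rested in part on small gaps. With regions less than 500 bp apart joined in both lists, the ratio was 0.948. Of the 1084 DMSO domains, 656 (60.5%) overlapped an AI-10-49 region that was itself 5000 bp or wider, and 428 did not.

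Summits were lower in AI-10-49 in nearly all domains. The highest AI-10-49 summit over each domain was set against the DMSO summit, both in fragments per M reads. Median heights were 5.996 and 3.74, respectively, with a median ratio per domain of 0.666 (quartiles 0.554 and 0.772). The summit was lower in AI-10-49 in 1041 of 1084 domains (96.0%), and 24 exceeded the fragment length ratio of 1.09. It was lower by over 1.5 times in 546 domains (50.4%), where 29.1% of all DMSO regions in both lists were. By width that share was 15.8% under 1 kb, 47.9% from 2 to 3.5 kb and 51.1% from 3.5 to 5 kb. The wide domains were thus like the next narrower regions. The summit was higher by over 1.5 times in 2 domains, against 12.8% of all DMSO regions in both lists and 0.523% of those of 3.5 to 5 kb. Both of these domains, in 11q24.3 (chr11:128571342-128579077, ratio 2.68), the band of the ETS factor gene FLI1, and in 17q22 (chr17:56418764-56423998, ratio 1.66), took the summit of a long AI-10-49 region that lay outside the DMSO domain. They were picked out after their values were seen, and in 13 domains in all the AI-10-49 summit lay outside the domain. Among the 10 widest domains, the ratio ran from 0.609 in 8q11.23 (7.99 and 4.87 fragments per M reads) to 0.940 in 11q13.2 (10.7 and 10.1).

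Set beside narrower regions in the same range of height in DMSO, the wide domains had a similar median ratio in 1 range and a lower one in the other 3. Only narrower regions in both lists enter here. The 19480 narrower regions without an AI-10-49 region have no ratio, while every wide domain has one. Over domains with 100 to 200 summit fragments in DMSO the median ratio was 0.631, and over narrower regions of that height it was 0.626. Summits were lower by over 1.5 times in 56.5% of these domains and 58.6% of these narrower regions. From 200 to 300 fragments the medians were 0.635 and 0.697, and 56.9% of domains against 42.95% of narrower regions were lower by over 1.5 times. From 300 fragments the medians were 0.732 and 0.792, and these shares 27.4% and 18.0%. Below 100 fragments the medians were 0.768 and 0.965, but heights were not matched within this range. The lowest wide domain had 44 fragments or 1.23 per M reads, and the median of all DMSO regions under 5 kb was 0.785 per M reads. Over all DMSO regions in both lists, wide or not, the median ratio was 0.838. Reversing the choice, domains wide in AI-10-49 had a median ratio of 0.714 (quartiles 0.608 and 0.825), and 92.4% of them had the lower summit in AI-10-49. The highest DMSO summit held 383 fragments, which is the number in the 26096 bp domain of 11q13.2 with the ratio of 0.940. If reads at the same position and strand were counted once, which the sources used here do not state, a summit could hold at most 384, and the part of such a limit in the ratios of the highest domains was not tested. A lower level of acetylation and a lower yield of the AI-10-49 precipitation cannot be told apart in 1 library per condition.

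**Figure D3:**
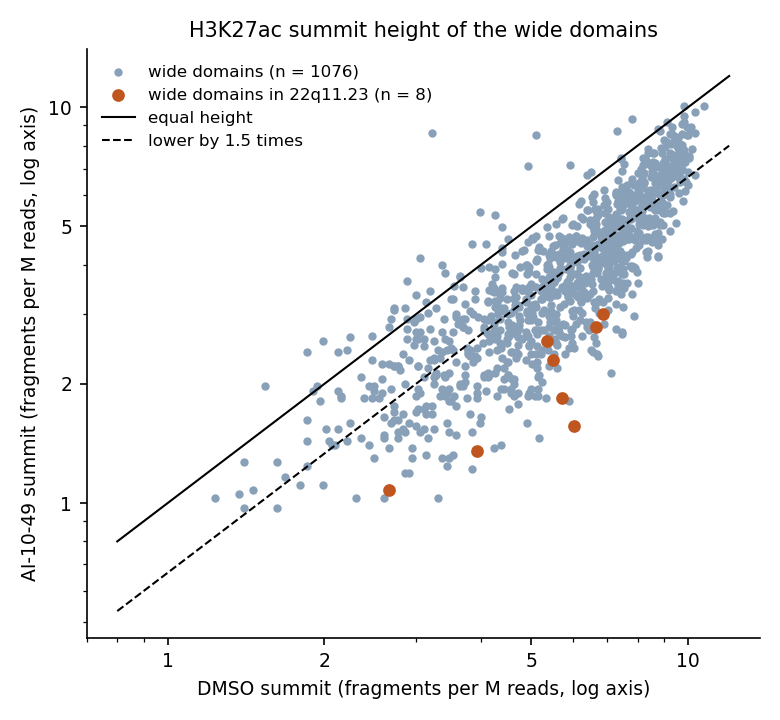
H3K27ac summit height of each wide domain in DMSO (x axis) and AI-10-49 (y axis), both in fragments per M reads on log axes. The solid line marks equal height and the dashed line a height lower by 1.5 times. Of the 1084 domains, 1041 lie below the solid line, and the 8 domains of 22q11.23 have ratios of 0.259 to 0.480.

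The position of the summit was largely retained. The AI-10-49 and DMSO summits of a domain were a median of 65 bp apart, and within 250 bp in 735 domains (67.8%). In 173 domains (16.0%) they were more than 1 kb apart. The AI-10-49 summit was at another place in the same domain in 160 of these and outside the domain in 13. The order of the domains by height was similar in both libraries (Spearman's rho 0.855 over 1084 domains, which share both libraries).

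The second comparison asks how many RUNX1 peaks lay in the domains with and without AI-10-49. In DMSO, 130 domains (11.99%, 10.1 to 14.1) overlapped a RUNX1 peak, and in AI-10-49 775 (71.5%, 68.7 to 74.2). Over all DMSO regions these shares were 2.14% and 13.8%, and over those of 3.5 to 5 kb 8.77% and 54.5%. Summed over domains, 149 RUNX1 peaks in DMSO compared with 1195 in AI-10-49, a ratio of 8.02, where the ratio of the whole lists was 6.07. More peaks were called in AI-10-49 than in DMSO in 717 domains (66.1%), against 12.1% of all DMSO regions. In 647 of the domains a RUNX1 peak was called in AI-10-49 and none in DMSO. With the AI-10-49 list cut to the length of the DMSO list by −log10 q, the share was 22.8% and the ratio 1.93. Both lists are then equally long, so this ratio compares where the highest-ranked peaks lay and not how many were called. With peaks of at least 2 fragments per M reads alone, the shares were 0.646% and 21.3% and the ratio 39.4. In the whole lists only 77 DMSO peaks reached that height, against 1556 in AI-10-49, so this ratio rests on few DMSO peaks. The size of the difference thus depended on how peaks were chosen. Its direction was the same with the higher peaks alone, and the setting of equal length cannot show the direction of a difference in number. More RUNX1 on chromatin and a higher yield of the AI-10-49 precipitation cannot be told apart. Both lists had a peak in 128 domains, and 307 (28.3%) had none in either. These counts, like that of 647, were not made over all DMSO regions.

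**Figure D4:**
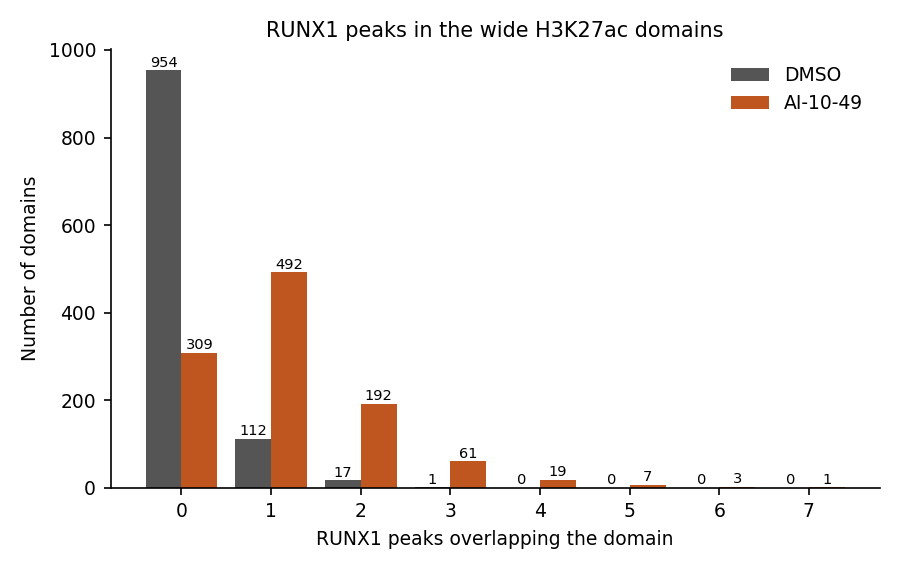
Number of wide domains (y axis) by the number of RUNX1 peaks that overlap them (x axis), for the DMSO and the AI-10-49 RUNX1 list. In DMSO 954 domains have no peak and 112 have 1, and in AI-10-49 309 have none, 492 have 1 and 283 have 2 or more.

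Domains with several RUNX1 peaks were a minority in both lists and more numerous in AI-10-49. In AI-10-49 283 domains (26.1%) held 2 or more, 91 held 3 or more, and the highest number was 7. Such counts were not made for narrower regions, and a longer interval meets more peaks at an equal density. AI-10-49 summits per 100 kb were 14.7 in the wide domains and 16.3 in regions of 3.5 to 5 kb. In DMSO 17 domains held 2 and 1 held 3, a 7764 bp domain of 9q34.3 (chr9:139922864-139930627) that also held 3 in AI-10-49. The opposite order was seen in 4 domains, chosen here after their values were known. The 2 domains that held a RUNX1 peak in DMSO and none in AI-10-49 were in 1p22.3 (chr1:86456046-86461718) and 14q11.2 (chr14:23580107-23585388). Domains of 11q13.1 (chr11:64509214-64514482) and 21q22.2 (chr21:40354598-40365963) held 2 and then 1.

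The wide domains had the largest share of regions with a RUNX1 peak among the width classes, but not the highest density of peaks. Per 100 kb, the wide domains held 1.83 RUNX1 summits in DMSO (exact Poisson interval 1.55 to 2.15) and 14.7 in AI-10-49 (13.9 to 15.5). Regions of 3.5 to 5 kb held 2.24 and 16.3 per 100 kb, and regions of 2 to 3.5 kb held 2.22 and 16.4. Only the shorter classes were sparser in AI-10-49, with 12.48 from 1 to 2 kb and 3.41 under 1 kb. Among the wide domains the AI-10-49 density was lower the wider the domain. It was 16.4 from 5 to 6 kb, 15.1 from 6 to 8 kb, 13.7 from 8 to 12 kb, 13.0 from 12 to 20 kb and 9.88 (6.92 to 13.7) from 20 kb up. The ratio of AI-10-49 to DMSO summits was 8.01 in the wide domains, 7.28 in regions of 3.5 to 5 kb, 7.38 from 2 to 3.5 kb and 5.84 from 1 to 2 kb.

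**Figure D5:**
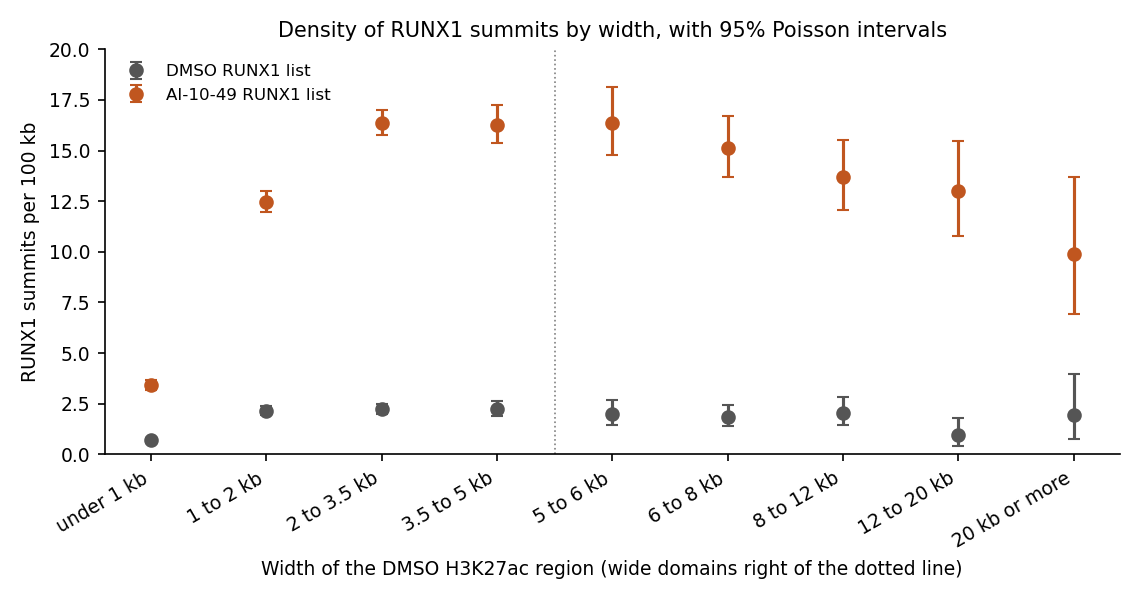
RUNX1 summits per 100 kb of H3K27ac region (y axis) by the width of the DMSO region (x axis), for the DMSO and the AI-10-49 RUNX1 list. Points are densities and bars 95% Poisson intervals. The AI-10-49 density is 16.4 in domains of 5 to 6 kb and 9.88 in those of 20 kb or more.

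RUNX1 peaks of the domains were also taller in AI-10-49. Of the 149 DMSO peaks in domains, 143 (96.0%, 91.4 to 98.5) overlapped an AI-10-49 peak, against 92.0% (90.4 to 93.5) in other acetylated regions and 85.4% (81.0 to 89.2) outside them. For these 143 the median ratio of summit fragments per M reads was 2.69 (quartiles 1.79 and 4.13), and 134 exceeded 1.13, the ratio of the RUNX1 fragment lengths. The median ratio was 2.09 in other acetylated regions and 1.91 outside. In AI-10-49 the 1194 peaks in domains had a median of 1.21 fragments per M reads, with 1.05 in other acetylated regions and 0.888 outside. Of these 1194, 1054 (88.3%, 86.3 to 90.05) overlapped no DMSO peak, and in other acetylated regions 85.4% did not.

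Within a domain, most RUNX1 summits lay away from its ends. Of 1185 AI-10-49 summits in domains, 790 (66.7%, 63.9 to 69.3) lay between 25% and 75% of the domain's width, where an even spread would put 50%. For the 148 DMSO summits the share was 68.2% (60.1 to 75.6). The DMSO H3K27ac summits of the domains lay in that central part in 794 cases (73.2%), so the placement was not particular to RUNX1. Only 15 AI-10-49 RUNX1 summits were within 500 bp of an end. The median distance to the H3K27ac summit was 610 bp in AI-10-49 and 595.5 bp in DMSO. In AI-10-49 732 summits (61.8%) lay within 1 kb of it and 37 (3.12%) within 150 bp.

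RUNX1 summits were denser in the stretches that were still covered. In the part of the domains still covered in AI-10-49 (7517 kb), 15.2 AI-10-49 RUNX1 summits were called per 100 kb (14.3 to 16.1). In the uncovered part (557 kb) there were 42 summits, or 7.54 per 100 kb (5.44 to 10.2). DMSO summits were divided in the same direction, with 1.94 per 100 kb (1.64 to 2.28) and 2 summits or 0.359 per 100 kb (0.0435 to 1.298). Of the uncovered part 51.1% was at domain ends, where few RUNX1 summits lay in either list, and the part of that position in the difference was not tested.

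Domains with more AI-10-49 RUNX1 peaks were also covered more fully. Median coverage was 93.7% in the 309 domains without such a peak, 95.5% with 1, 96.8% with 2 and 97.9% with 3 or more. Those with more peaks were wider (medians of 6120, 6310.5, 6690.5 and 8021 bp) and higher in DMSO (5.02, 5.98, 6.99 and 7.79 fragments per M reads). Among domains of 5 to 6.5 kb alone the medians of coverage were 94.2%, 94.97%, 96.3% and 97.7%. The median height ratio in these was 0.623, 0.672, 0.706 and 0.720 in the same order, and over all widths 0.622, 0.666, 0.703 and 0.688. The quartiles of these groups overlapped, and over all domains the rank correlation of RUNX1 peaks with coverage was weak (rho 0.177) and with the height ratio weaker (0.130). Domains under 75% covered made up 7.12%, 5.08%, 2.08% and 1.099% of the groups with 0, 1, 2 and 3 or more peaks. At 5 to 6.5 kb they were 5.73%, 7.06%, 4.44% and 0%, so the order did not hold from 0 to 1 peak. The heights in DMSO moved with the RUNX1 count, and their part in these differences was not tested.

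The domain richest in RUNX1 was the 24933 bp domain of 11p13. Its 2 DMSO peaks had 0.592 and 0.740 fragments per M reads, and the AI-10-49 peaks over them, chr11:35057361-35057961 and chr11:35072085-35072606, had 4.89 and 3.33. The other 5 AI-10-49 peaks had 1.05 to 1.81. This domain was 97.8% covered, and its H3K27ac summit had 6.47 fragments per M reads in DMSO (5.66 to 7.36) and 4.41 in AI-10-49 (3.76 to 5.14). RUNX1 was higher and H3K27ac lower at this domain, which was chosen for its number of AI-10-49 RUNX1 peaks. The H3K27ac summit was lower in 96.0% of all wide domains.

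Domains with 6 AI-10-49 RUNX1 peaks lay in 17q22, 1p36.11 and 10p14. The one in 17q22, the band of the granule enzyme gene MPO, was chr17:56399917-56418655. It had no DMSO peak, and its 6 AI-10-49 peaks had 0.857 to 1.396 fragments per M reads, around the median of 1.21 for AI-10-49 peaks in domains. The 1p36.11 domain (chr1:26600563-26619039) had 1 DMSO peak of 1.63 fragments per M reads and AI-10-49 peaks of 0.984 to 2.92. In 10p14 the single DMSO peak had 0.859, and the AI-10-49 peak at the same place, chr10:11220569-11221121, had 3.68. A further 7 domains were tied at 5 AI-10-49 RUNX1 peaks. Of these the one with the highest −log10 q in DMSO, 7875 bp in 11q12.1 (chr11:58340431-58348305), had none in DMSO and was wholly covered. The others, in 3p22.2, 14q24.3, 15q24.1, 16q24.1, 19p13.3 and 19q13.12, were 6864 to 23489 bp wide and 89.6% to 100% covered. H3K27ac ratios of the domains in 17q22, 1p36.11, 10p14 and 11q12.1 were 0.853, 0.752, 0.687 and 0.845.

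The AI-10-49 RUNX1 peaks with the highest −log10 q in any domain were all at sites already in the DMSO list. The first, chr12:7062567-7063433 in 12p13.31, had 7.995 fragments per M reads (7.04 to 9.05) and lay 2339 bp from the H3K27ac summit of a 13292 bp domain (chr12:7059387-7072678) that was 99.5% covered. The next 2 shared an 8062 bp domain of 17q21.31 (chr17:43298423-43306484), at chr17:43303297-43303941 (6.98) and chr17:43306116-43307033 (6.35, reaching past the domain's end). This domain held 2 RUNX1 peaks in DMSO and 4 in AI-10-49 and was 99.7% covered.

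Some wide domains had a wide neighbour. Of 1061 neighbouring pairs on a chromosome, 136 (12.8%) were at most 10 kb apart, and 35 were less than 1 kb apart. Joined at 10 kb, the group with most domains was in 5q31.1, with 7 over 95.6 kb (chr5:134680425-134776050). It held 0 RUNX1 peaks in DMSO and 5 in AI-10-49, was 95.4% covered, and had height ratios from 0.418 to 0.836. A group of 5 in 8q11.23 over 73.4 kb (chr8:53028461-53101899) had 1 and 2 RUNX1 peaks and was 94.9% covered. The 4 domains of 12p13.2 over 93.6 kb had 1 and 2 RUNX1 peaks and were 95.9% covered, and 4 in 10p14 over 70.1 kb had 1 and 7 and were 89.4% covered. In 8q24.21, the band of MYC, 7 wide domains were 81.0% to 98.6% covered, together overlapped 1 RUNX1 peak in DMSO and 4 in AI-10-49, and had height ratios of 0.522 to 0.698.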

How the data were processed

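ME-1 chromatin was sequenced after precipitation of H3K27ac or RUNX1, with 1 library per antibody and condition. The 4 peak lists were used, and the 2 input libraries were not analysed here. MACS2 2.1.0, Picard 1.96, SAMtools 1.3, Bowtie2 2.1.0, CASAVA 1.4 and the build hg19 are named, without role or order, in the processing notes of the submitters. For each peak the deposited lists hold its position, its summit, a fold enrichment (a ratio to local background), −log10 p and −log10 q, all as the authors' caller wrote them. The deposited score repeats −log10 q and was not used.

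A peak lay in a domain if they overlapped by at least 1 bp. Coverage is the share of a domain's bases inside regions of the other list. The deposited fold and −log10 p together fix the number of fragments at a summit, up to a scaling between ChIP and input. That scaling was set where the numbers came out whole, and 100% of peaks in each list were then solved to within 0.003 of −log10 p. Read totals follow from the lowest background, an assumed genome size of 2700000000 bp and the shortest peak as fragment length. In simulated lists of 1500 peaks for each library 100% of fragment numbers were exact, and 0 of 2000 interval counts differed from bedtools 2.31.1. Where several AI-10-49 regions overlapped a domain, the one with most summit fragments gave its height. Shares carry exact Clopper-Pearson intervals (95%). Python 3.11.15, numpy 2.4.6, pandas 2.3.3, scipy 1.17.1 and matplotlib 3.10.9 were used.

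Named domains were the 10 widest, the 5 least covered, the 5 with most AI-10-49 RUNX1 peaks, the 5 most divided, 5 on each side of the width threshold, the 3 highest RUNX1 peaks in domains and those of the MYC band, with ties broken by −log10 q in DMSO. The members and rules were chosen with earlier results of these data known. The joining distance for neighbouring domains was chosen after seeing the data. Positions are 1-based. Bands are those of circlize 0.4.16. The gene and promoter tables at hand were of GRCh38.p14, so no gene or sequence was assigned to a domain, and gene lists were not run.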

Additional observations from a re-analysis of the deposited data

How the results depend on the processing

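Among 51 alternative values, 26 differed little (a share within its 95% interval, a count or ratio by less than 1.5 times) and 25 moved further. For coverage, which is a share of bases, that interval was computed as if it were a share of domains, so its labels are only a rough guide. A change of direction was looked for only in the ratios of RUNX1 peaks, of wide regions and of summit heights, and 0 changed. Shares, counts and densities were not checked for direction. The setting with at least 2 RUNX1 fragments per M reads and the reversed choice for the height ratio were added after seeing the data. Except where the setting itself changes the number of domains or peaks, the cause was not tested. With a width of at least 4000 bp (1988 domains), 21 were under 50% covered, 1140 were split, and 64.0% held an AI-10-49 RUNX1 peak. With at least 7500 bp (326 domains) coverage was 94.6%, 2 were under 50% covered, 218 were split, 14.7% and 79.1% held a RUNX1 peak in DMSO and AI-10-49, and coverage of the wide AI-10-49 domains was 97.2%. With AI-10-49 regions at −log10 q of at least 5, 10 domains were under 50% covered. With regions under 500 bp apart joined, coverage was 95.6%, 3 domains were under 50% covered, 99 were split, and the reverse coverage was 97.3%. The medians per domain were 95.5% and, in reverse, 98.0%. At 75% as the limit of coverage, 52 domains fell below. RUNX1 peaks with −log10 q of at least 5 lay in 67.3% of domains in AI-10-49. With equally long RUNX1 lists the share was 22.8% and the ratio of peaks 1.93, since most AI-10-49 peaks are then dropped. The total is fixed in that setting, so it is no check on the direction of the difference in number. With at least 2 fragments per M reads the shares were 0.646% and 21.3% and the ratio 39.4, from whole lists of 77 and 1556 such peaks. RUNX1 base pairs per 100 kb were 5926 in the kept and 1409 in the uncovered part. No paired analysis was possible because there was a single library for each antibody and condition. The part of depth in where a region ends was not tested.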

Other observations

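Regions that were 5000 bp or wider after AI-10-49 were looked at in their own right. The AI-10-49 list had 107 of at least 10 kb and 8 of at least 20 kb, and its 5 widest, in 1q32.1, 12p13.2, 8q11.23, Xp11.3 and 6q23.3, each overlapped one of the 10 widest DMSO domains. Of the 899, 664 overlapped a wide DMSO domain and 235 did not. An AI-10-49 RUNX1 peak lay in 667 of them (74.2%) and a DMSO RUNX1 peak in 108 (12.01%). The least covered in DMSO was a 5694 bp domain of 11q13.1 (chr11:65542699-65548392), with 42.0% covered by 3 DMSO regions and a gap of 2517 bp, and with 0 and 1 RUNX1 peaks. A 7055 bp domain of 22q13.33 (chr22:50353134-50360188) was 58.0% covered and held 0 and 2 RUNX1 peaks. In both, the H3K27ac summit was lower in AI-10-49 (ratios 0.713 and 0.842) although the region was longer. A 5130 bp domain of 6q24.2 (chr6:144125163-144130292), 60.6% covered in DMSO, had the higher summit in AI-10-49, with 1.703 against 0.953 fragments per M reads and no RUNX1 peak in either list.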
